A study of Mus musculus with 12 samples.

Results

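The genes described here are the matrix metalloproteinases (Mmp), the tissue inhibitors of metalloproteinases (Timp), the ADAMTS proteases and the ADAMTS-like proteins of mouse osteocyte-like cells. They were chosen by symbol: Mmp, Adamts or Adamtsl followed by a number, and Timp1 to Timp4. Such a symbol was carried by 50 of the 32248 rows of counts, and 34 of these had 10 or more counts in at least 2 libraries and are described. The 34 comprised 12 of 22 Mmp genes, 3 of 4 Timp genes, 14 of 19 Adamts genes and 5 of 5 Adamtsl genes. Of the 34, 33 were among the 13772 genes tested, and Adamts3 was not. The rule uses symbols and count levels and no difference between groups. Mmp16, with 10 or more counts in 6 libraries, and Adamtsl2, with 10 or more in 3, passed it through WT libraries alone, so each had to be higher in WT in some libraries.

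OCY454 is a mouse osteocyte-like line that divides at a permissive temperature through a large T antigen. In the KO cells exons 19 to 21 of Piezo1, which encodes a mechanically gated cation channel, were deleted with CRISPR-Cas9, and the WT cells carried no such deletion. The comparison asks how the loss of Piezo1 bears on osteocyte differentiation. KO and WT cells were expanded at 33 °C and differentiated at 37 °C, and their medium was alpha-MEM (10% FBS, 1% anti-anti). Cells were collected after 1, 14 and 28 days at 37 °C, which gave 6 groups with 2 libraries of poly(A) RNA each, from 12-well plates lysed in Qiazol. The labels give neither the number of edited clones nor whether replicates were separate cultures, so the p-values reflect the spread of these libraries alone, which may be technical. In these bulk libraries fewer cells expressing a gene and less RNA per cell cannot be told apart.

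Matrix metalloproteinases are zinc enzymes that cut collagens, gelatins and proteoglycans. Most are secreted or membrane-bound as inactive proforms, and the TIMP proteins bind and block the active forms. ADAMTS proteases are secreted relatives that cut proteoglycans such as aggrecan and versican or trim procollagens, while ADAMTS-like proteins share their matrix-binding domains but lack the catalytic one. In bone, osteoblasts and osteocytes use several of these enzymes, Mmp13, Mmp14 and Mmp2 among them, to turn over the collagen matrix around them.

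Promoter sequences were available from RefSeq (GRCm38.p6) for 23 of the 34 described genes, and 5 stretches of 250 bases ending at the base before an annotated start are shown, 5′ to 3′ on the gene's strand. Mmp13 and Adamts1 are shown because both had their highest level in KO cells at day 14, and Timp3 because it was lower in KO at each day. Mmp12 and Mmp3 are shown as neighbours of Mmp13 that were at low or almost no counts. For Mmp12 the start with an AP-1 match is shown, and its first annotated start had none. Capitals mark matches to the AP-1 motif TGANTCA or to the Runx motif TGTGGT, read on both strands (ACCACA on the other).
Mmp13, chr9:7272264-7272513, plus strand: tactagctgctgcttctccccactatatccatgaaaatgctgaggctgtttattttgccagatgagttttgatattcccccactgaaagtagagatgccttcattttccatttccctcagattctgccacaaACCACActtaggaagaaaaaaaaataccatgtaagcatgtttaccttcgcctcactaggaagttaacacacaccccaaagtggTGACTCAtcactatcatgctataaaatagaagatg
Mmp12, second annotated start, chr9:7347124-7347373, plus strand: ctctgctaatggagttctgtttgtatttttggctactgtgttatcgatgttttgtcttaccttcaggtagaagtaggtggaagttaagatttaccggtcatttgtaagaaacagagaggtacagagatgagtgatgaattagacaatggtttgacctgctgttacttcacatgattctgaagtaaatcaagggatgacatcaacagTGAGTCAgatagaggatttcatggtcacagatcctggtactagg
Mmp3, chr9:7445572-7445821, plus strand: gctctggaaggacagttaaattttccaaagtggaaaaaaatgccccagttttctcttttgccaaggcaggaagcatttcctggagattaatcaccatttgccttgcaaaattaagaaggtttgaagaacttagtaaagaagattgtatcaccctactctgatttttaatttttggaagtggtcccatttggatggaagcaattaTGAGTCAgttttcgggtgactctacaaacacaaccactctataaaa
Adamts1, chr16:85803114-85803363, minus strand: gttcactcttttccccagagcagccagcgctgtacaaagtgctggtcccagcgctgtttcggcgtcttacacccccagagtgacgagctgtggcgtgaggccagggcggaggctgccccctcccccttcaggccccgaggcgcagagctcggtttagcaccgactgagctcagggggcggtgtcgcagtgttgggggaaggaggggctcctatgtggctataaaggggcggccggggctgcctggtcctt
Timp3, chr10:86300162-86300411, plus strand: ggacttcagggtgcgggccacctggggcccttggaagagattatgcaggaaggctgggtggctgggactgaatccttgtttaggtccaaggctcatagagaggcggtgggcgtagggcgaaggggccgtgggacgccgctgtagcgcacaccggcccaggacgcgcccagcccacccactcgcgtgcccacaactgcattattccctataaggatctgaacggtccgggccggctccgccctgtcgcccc

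The Mmp13 stretch held an AP-1 match whose first base lay at -35 from the start, a Runx match at -118 and the letters TATAAA at -16. AP-1 and Runx2 are known regulators of Mmp13 in osteoblasts. Among all 32851 promoters of the table, 6.75% held the AP-1 letters, 14.0% the Runx letters and 12.4% TATAAA on either strand. Among the 23 described genes with a promoter, 2 held the AP-1 letters (Mmp13 and Mmp12), 3 the Runx letters (Mmp13, Mmp14 and Mmp23) and 3 TATAAA (Mmp13, Adamts1 and Adamtsl2). A gene was counted if any of its promoters matched, while the shares above are per promoter, so counts and shares are not directly comparable. Mmp12 and Mmp23 each had another promoter without the match. Of the 9 genes of the chromosome 9 Mmp cluster with a promoter, 7 held the AP-1 letters, and only 2 of those 7 had enough counts to be described. Mmp3, with an AP-1 match at -46, had 1 count in all 12 libraries together. These matches are a description of letters in a window and show no binding.

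Library totals ran from 8590067 to 15357427 counts, with TMM scaling factors from 0.9417 to 1.051. Of 16 osteoblast and osteocyte markers, 13 to 15 had 10 or more counts in both libraries of a group, with Fgf23 at 0 to 2 counts and Sost at 4 to 20 counts per library. Osteoclast and macrophage markers reached 6 or 7 of 10. Ctsk had 1201 to 2610 counts per library, Itgb3 103 to 479, Acp5 127 to 233 and Cd68 27 to 65. Csf1r had 19 to 40, Ptprc 14 to 30, Tnfrsf11a 4 to 15 and Oscar 4 to 13, and Calcr and Adgre1 had 0 to 3. Piezo1 itself had 1988 and 2302 counts in KO against 3323 and 3268 in WT at day 1, 1211 and 1255 in KO against 2499 and 1781 in WT at day 14, and 3254 and 4058 in KO against 3369 and 2929 in WT at day 28. Reads from the exons outside the deletion still count, so this gene is a poor check of the labels. A row named for a construct of YAP and EGFP held 0 to 7 counts in the KO libraries, 2 and 3 in WT at day 1, 82 and 45 in WT at day 14 and 224 and 75 in WT at day 28. Its part in the results below was not tested.

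Per kilobase of exon and averaged over the 12 libraries, Timp2 was the most abundant of the 34 genes at 148.9 CPM per kb, followed by Mmp14 at 72.64, Mmp2 at 53.8, Timp3 at 42.34, Adamtsl3 at 31.65 and Timp1 at 28.45. The most abundant Adamts gene was Adamts4 at 13.0 CPM per kb, close to Adamts2 at 10.87, Mmp11 at 10.69, Adamts12 at 10.53 and Adamts1 at 10.12. Their order changed between groups, with Adamts4 at 25.89 CPM per kb and Adamts12 at 14.95 in KO at day 14, against 6.548 for Adamts4 and 21.13 for Adamts12 in WT at day 14. Next came Mmp9, Adamts10, Adamts9, Mmp23, Adamtsl5, Mmp13, Adamtsl4, Mmp28, Adamts5, Mmp19, Adamts6 and Adamts20, between 8.515 and 1.332 CPM per kb. The 11 lowest, from Adamts14 at 0.9639 through Adamtsl1, Adamts18, Mmp16, Mmp8, Adamts7, Adamts17, Mmp17, Mmp12 and Adamts3 down to Adamtsl2 at 0.0564 CPM per kb, spanned genes that were low everywhere and genes that were low in KO. Mmp14 and Mmp2 held the first and second place among the Mmp genes in every WT group.

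The genes under the count rule were Mmp1b, Mmp3, Mmp7, Mmp10, Mmp15, Mmp20, Mmp21, Mmp24, Mmp25, Mmp27, Timp4, Adamts8, Adamts13, Adamts15, Adamts16 and Adamts19, which had between 0 and 43 counts over all 12 libraries. For 17 of the 34 described genes the highest of the 6 group means was in a KO group, and the share over all genes was not computed. The plot of group means shows genes with nearly equal levels in all groups, such as Mmp14 and Adamts20, and genes with a wide spread, such as Mmp13, Timp3 and Adamtsl1.

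**Figure D1:**
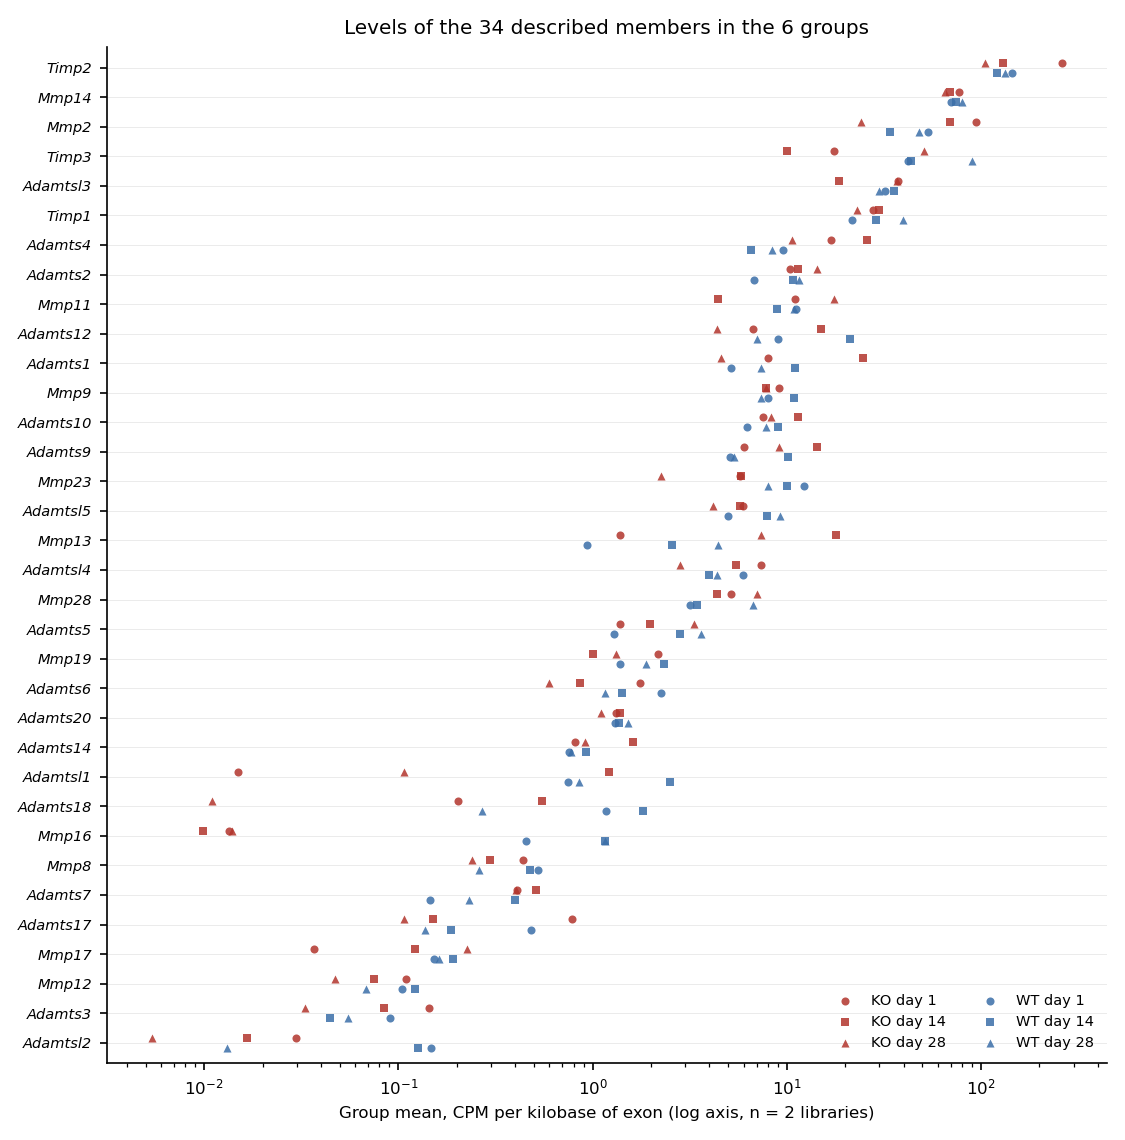
Group means of the 34 described genes in CPM per kilobase of exon (log axis), ordered by the mean over 12 libraries; colour gives the line and the marker shape the day, with 2 libraries per group. Timp2 lies at the top at 148.9 and Adamtsl2 at the bottom at 0.0564, and the KO points of Mmp16 lie far left of its WT points on each day.

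At day 1, 13 of the 33 tested genes were higher and 8 lower in KO than in WT, against a background of 19.5% of all tested genes higher and 20.8% lower. The median log2 fold change of the 33 was 0.19, against -0.01 over all tested genes. The lower genes include Mmp16 at each day and Adamtsl2 at days 1 and 14. These passed the count rule through WT libraries alone, so their place among the lower genes is not independent of that rule. With library totals in place of TMM the split at day 1 was 8 higher and 9 lower, against 2121 higher and 3418 lower over all genes, where TMM gave 2685 and 2859. At day 14, 8 were higher and 14 lower (background 23.8% and 25.9%), with a median of -0.46 against -0.02. At day 28, 6 were higher and 15 lower (background 19.8% and 21.2%), with a median of -0.44 against -0.01; over all genes library totals gave 1809 higher and 3692 lower in place of 2730 and 2916. Without single libraries the number called ranged from 14 to 25 at day 1, from 18 to 23 at day 14 and from 18 to 22 at day 28.

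Read day by day, 6 genes were lower in KO at all 3 days: the membrane metalloproteinase genes Mmp16 and Mmp23, the inhibitor gene Timp3, the protease genes Adamts12 and Adamts18, and Adamtsl1. Mmp16 passed the count rule through WT libraries alone. Only Adamts4 and Adamts9, which encode proteoglycan-cutting enzymes, were higher in KO at all 3 days. The gelatinase gene Mmp2, Adamts1 and Adamtsl4 were higher in KO at days 1 and 14 and lower at day 28. Timp1 and Timp2 were higher at day 1, not called at day 14 and lower at day 28. Mmp8, Mmp12 and Adamts17 were called at none of the 3 days. Of the 64 calls between the lines, 19 were lost under at least 1 of 17 alternative settings, 9 of them at day 1, and these are named with each gene below.

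**Figure D2:**
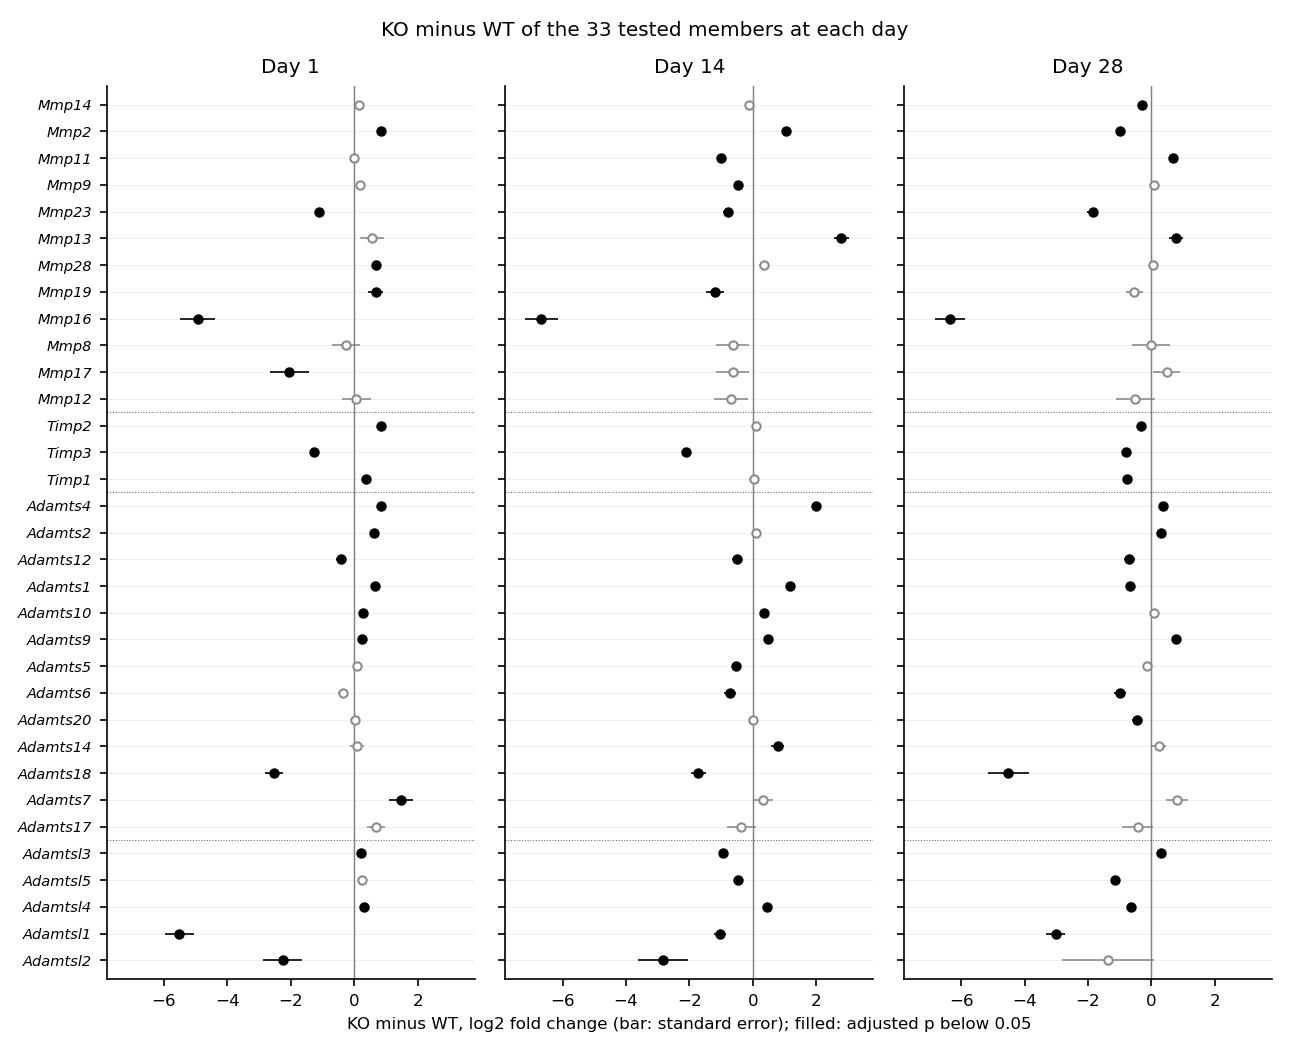
KO minus WT log2 fold change (bars: standard error) of the 33 tested genes at each day, grouped by family from top to bottom as Mmp, Timp, Adamts and Adamtsl; filled points had an adjusted p below 0.05. Mmp16 and Adamtsl1 lie farthest to the left at day 1, at -4.93 and -5.52, and Mmp13 farthest to the right at day 14, at 2.79.

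Mmp13, the main collagenase of mouse osteoblasts, lies on chromosome 9 from 7272514 to 7283331 on the plus strand (GRCm38, as for all genes below). It had 43 and 51 counts in KO against 26 and 51 in WT at day 1, 506 and 564 against 84 and 58 at day 14, and 149 and 390 against 149 and 161 at day 28. On the CPM scale both KO libraries stood far above WT at day 14, and the groups overlapped at day 28. KO exceeded WT by 2.79 ± 0.24 on the log2 scale at day 14 (standard error, n = 2 per group; adjusted p = 5.45e-09), and the difference at day 1 was 0.56 ± 0.38 (adjusted p = 0.261). At day 28 it was 0.77 ± 0.23 (adjusted p = 0.00984), which fell to 0.13 (adjusted p = 0.673) without KO day 28 replicate 2, was 1.17 without replicate 1, and was not called by DESeq2 (adjusted p = 0.148). Mmp13 is also expressed by hypertrophic chondrocytes. Of 8 chondrocyte markers 4 were detected in every group, their summed level was 881.2 to 935.9 CPM in KO against 814.6 to 862.7 CPM in WT at day 14, and Col10a1, the hypertrophic marker, had 1 to 5 counts per library. The sum was mostly Col11a2, which reached 883 CPM, against at most 59.3 for Sox9, 55.5 for Hapln1 and 18.4 for Col2a1. Acan had 1 to 8 counts per library, Col9a1 0 to 6 and Matn1 0 to 4. Unlike the sum, Col2a1 was lower in KO at day 14, with 4.625 and 3.943 CPM against 12.31 and 11.46 in WT. The part of these markers in the result was not tested.

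Mmp2, gelatinase A, on chromosome 8 from 92827291 to 92853420 (plus strand), turned from higher to lower in KO. Its counts were 3624 and 4432 in KO against 2830 and 2656 in WT at day 1, 2456 and 2761 against 1248 and 1067 at day 14, and 900 and 1250 against 2455 and 1832 at day 28. The groups did not overlap on any day. The differences were 0.83 ± 0.08 (adjusted p = 2.07e-08), 1.04 ± 0.08 (8.05e-10) and -0.99 ± 0.08 (4.92e-09). Each of these calls held under all 17 alternatives, with a range of -1.07 to -0.89 at day 28. Mean levels per length were 94.28 ± 3.461, 69.49 ± 1.018 and 24.14 ± 1.474 CPM per kb in KO, against 53.14 ± 2.036, 33.92 ± 3.828 and 47.84 ± 4.214 in WT (SD, n = 2), so the KO line fell through the time course and the WT line was lowest at day 14.

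Mmp9, gelatinase B, best known from osteoclasts and neutrophils, stayed between 7.357 and 10.92 CPM per kb in all groups. It was lower in KO at day 14 by -0.47 ± 0.13 (adjusted p = 0.00542), a call that was lost without WT day 14 replicate 2 (-0.40, adjusted p = 0.0565) or KO day 14 replicate 1 (-0.34, adjusted p = 0.0975). Mmp8, the neutrophil collagenase, had 4 to 21 counts per library and differed at no day. Of 6 neutrophil markers 5 were detected in every group, with sums of 18.09 to 20.2 CPM in KO against 17.37 to 44.66 CPM in WT at day 14. S100a9 had 65 to 145 counts per library, Ngp 54 to 155, S100a8 17 to 48, Mpo 16 to 43, Camp 11 to 36 and Elane 2 to 13. Osteoclast and macrophage markers summed to 177 to 192.3 CPM in KO against 188.3 to 210.2 CPM in WT at day 14. The part of these markers in the Mmp9 result was not tested. Mmp12, macrophage elastase, had 4 to 14 counts per library and was not called at any day.

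Among the membrane-anchored enzymes, Mmp14, which cuts fibrillar collagen and activates the proform of Mmp2 together with Timp2, was nearly constant. Its group means lay between 65.46 and 79.9 CPM per kb. KO and WT differed by 0.14 ± 0.07 (adjusted p = 0.143) at day 1 and by -0.11 ± 0.07 (0.208) at day 14. At day 28 Mmp14 was lower in KO, by -0.29 ± 0.07 (0.00322), and this call was lost without WT day 28 replicate 1 (-0.15, adjusted p = 0.0585).

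Mmp16 (MT3-MMP, chromosome 4 from 17852893 to 18119145, plus strand) was close to absent from the KO libraries. They held 1 and 2 counts against 62 and 58 in WT at day 1, 0 and 2 against 129 and 80 at day 14, and 2 and 1 against 179 and 93 at day 28. No KO library came near a WT library. The counts of each pair of libraries were summed and scaled by the library totals times their TMM factors. On this scale KO was 33 times lower at day 1 (exact 95% interval 11 to 162), 113 times lower at day 14 (31 to 943) and 90.1 times lower at day 28 (30.5 to 439). The intervals cover counting error only. Adjusted p-values were 4.08e-07, 1.06e-09 and 1.05e-09. Since Mmp16 passed the count rule through WT libraries alone, these and the intervals are not independent of its choice and describe the counts only. The fitted log2 value at day 14 moved to -10.01 without KO day 14 replicate 2, where -6.67 was fitted to all libraries, since a single library without counts then stood for KO. In WT, Mmp16 was higher at day 14 than at day 1 by 1.37 ± 0.25 (0.000201) and at day 28 than at day 1 by 1.37 ± 0.24 (8.2e-05).

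Mmp23, a membrane-tethered enzyme whose ectodomain is released by furin-like cleavage, lies on chromosome 4 from 155650655 to 155653384 (minus strand). Its counts were 169 and 169 in KO against 429 and 450 in WT at day 1, 147 and 156 against 304 and 184 at day 14, and 72 and 64 against 291 and 206 at day 28. KO libraries were the lower ones on every day. The differences were -1.10 ± 0.14 (adjusted p = 1.7e-06), -0.79 ± 0.15 (0.000131) and -1.85 ± 0.17 (2.4e-08). Mmp17 (MT4-MMP) had 2 to 22 counts per library; its call at day 1, -2.05 ± 0.62 (0.0117), was lost without WT day 1 replicate 2 (-1.26, adjusted p = 0.23) or KO day 1 replicate 2 (-1.54, adjusted p = 0.145).

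Mmp11 (stromelysin-3, chromosome 10 from 75923222 to 75936496, minus strand), which furin activates inside the cell, had 392 and 382 counts in KO against 469 and 486 in WT at day 1, 116 and 160 against 304 and 209 at day 14, and 540 and 743 against 453 and 354 at day 28. On the CPM scale the groups overlapped at day 1, KO was lower at day 14 by -1.01 ± 0.13 (adjusted p = 1.64e-06) and higher at day 28 by 0.68 ± 0.10 (2.07e-05). Mmp11 shares exon sequence with Chchd10, an opposite-strand gene. Whether reads were counted by strand is not given in the sources used here, so reads of such pairs cannot be told apart.

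Mmp19 (chromosome 10 from 128790910 to 128800824, plus strand) had 80 and 117 counts in KO against 62 and 87 in WT at day 1, 32 and 48 against 99 and 70 at day 14, and 59 and 63 against 124 and 57 at day 28. It was lower in KO at day 14 by -1.20 ± 0.28 (adjusted p = 0.00123). The day 1 call of 0.67 ± 0.25 (0.0346) was lost without WT day 1 replicate 1 (0.44, adjusted p = 0.285), without KO day 1 replicate 2 (0.49, 0.274), with library totals (0.054) and with DESeq2 (0.0688). Mmp28 (epilysin) was higher in KO at day 1 by 0.69 ± 0.13 (0.000286), and its values at days 14 and 28 were 0.35 ± 0.15 (0.052) and 0.06 ± 0.12 (0.739). Mmp19 and Mmp28 also share exon sequence with genes on the opposite strand (Gm47093 and Tmem198b, and 1700020L24Rik).

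**Figure D3:**
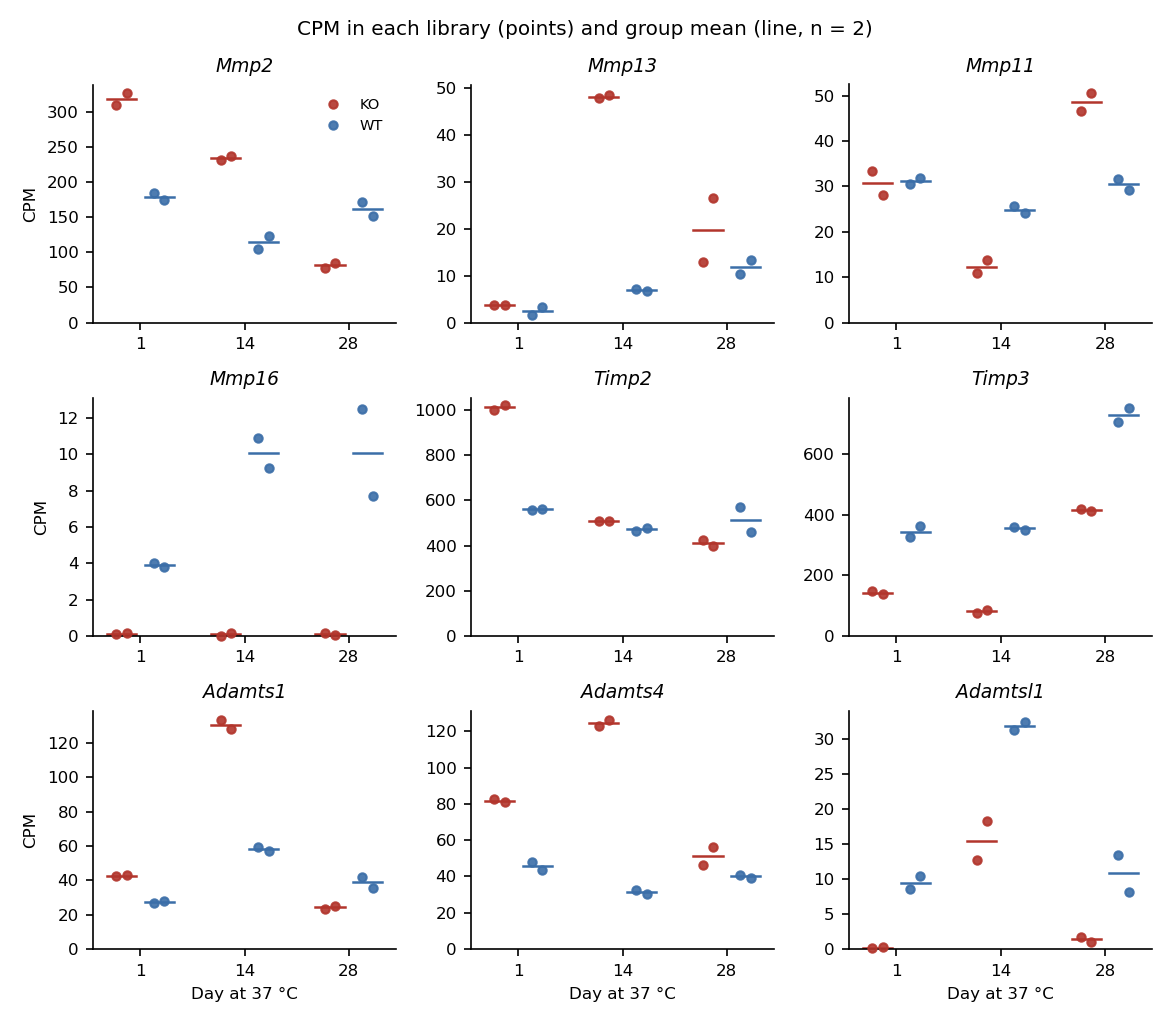
CPM of 9 genes in each library (points) by day, with the group mean as a line (n = 2) and the KO pair to the left of the WT pair. Mmp13, Adamts1 and Adamts4 stand highest in the KO libraries of day 14, Timp3 is below WT in KO on each day, and Mmp16 stays near 0 in KO.

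The 3 inhibitor genes did not move together. Timp3, whose protein is bound to the matrix and also blocks ADAMTS4, ADAMTS5 and ADAM17, lies on chromosome 10 from 86300372 to 86349506 (plus strand). It had 1717 and 1886 counts in KO against 5009 and 5509 in WT at day 1, 810 and 1011 against 4264 and 3029 at day 14, and 4847 and 6090 against 10121 and 9116 at day 28. Every KO library lay below every WT library of its day. The differences were -1.27 ± 0.07 (adjusted p = 1.3e-11), -2.12 ± 0.08 (5.13e-15) and -0.81 ± 0.07 (7.73e-09), and each held under all 17 alternatives. Timp3 shares exon sequence with Syn3 on the opposite strand.

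Timp2, which inhibits most MMP enzymes and takes part in the activation of pro-Mmp2, had 11745 and 13912 counts in KO against 8598 and 8576 in WT at day 1, 5380 and 5928 against 5507 and 4150 at day 14, and 4893 and 5847 against 8186 and 5572 at day 28. KO was higher at day 1 by 0.85 ± 0.08 (adjusted p = 1.46e-08). At day 14 the difference was 0.11 ± 0.08 (0.267), and at day 28 KO was lower by -0.33 ± 0.08 (0.00154), a value that was -0.16 (adjusted p = 0.0311) without WT day 28 replicate 1. Timp1, a soluble inhibitor with little activity against membrane-type enzymes, was lower in KO at day 28 by -0.78 ± 0.13 (5.53e-05) and differed by 0.03 ± 0.14 (0.858) at day 14. Its call at day 1, 0.36 ± 0.13 (0.0381), was lost without WT day 1 replicate 1 (0.19, adjusted p = 0.389), KO day 1 replicate 1 (0.41, 0.0722) or KO day 1 replicate 2 (0.31, 0.192), with library totals (0.0822) and with DESeq2 (0.0668), and the value was 0.55 without WT day 1 replicate 2.

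Summed over the 3 genes, the Timp level was 302.5 and 308.3 CPM per kb in KO against 202.5 and 213.2 in WT at day 1, 169.6 and 170.6 against 193.5 and 193.9 at day 14, and 184.9 and 174.2 against 277.9 and 244.9 at day 28. The sum over the 12 Mmp genes was 207.1 and 205.5 in KO against 160.8 and 161.5 in WT at day 1, 177.1 and 184.2 against 149.6 and 148.2 at day 14, and 132.7 and 134.1 against 180.8 and 156.7 at day 28. Timp exceeded Mmp transcripts in 10 of 12 libraries, and the exceptions were both KO libraries of day 14, with Timp to Mmp ratios of 0.958 and 0.926. The ratios were 1.46 and 1.5 in KO against 1.26 and 1.32 in WT at day 1, 1.29 and 1.31 in WT at day 14, and 1.39 and 1.30 in KO against 1.54 and 1.56 in WT at day 28. The count of 10 libraries was the same with library totals and without division by length. Transcript sums give no protein or enzyme activity, and these sums were not tested.

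Timp2 made up 85.2% of the Timp sum in KO at day 1 and 50.6% in WT at day 28. Mmp2 was the largest part of the Mmp sum in KO at days 1 and 14 (45.7% and 38.5%), and Mmp14 in the other 4 groups (43.3% to 50.2%). The Adamts sum was highest at day 14 in both lines, with 109.7 ± 1.042 CPM per kb in KO and 77.55 ± 1.157 in WT (SD, n = 2). It was 62.5 ± 0.87 in KO against 49.33 ± 0.8937 in WT at day 1, and the KO libraries of day 28 (58.25 and 57.42) lay within the WT range (59.58 and 51.02). The Adamtsl sum stood out at day 14, with 31.16 and 30.99 in KO against 48.84 and 51.22 in WT, and Adamtsl3 made up 59.9% to 83.8% of it in every group.

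**Figure D4:**
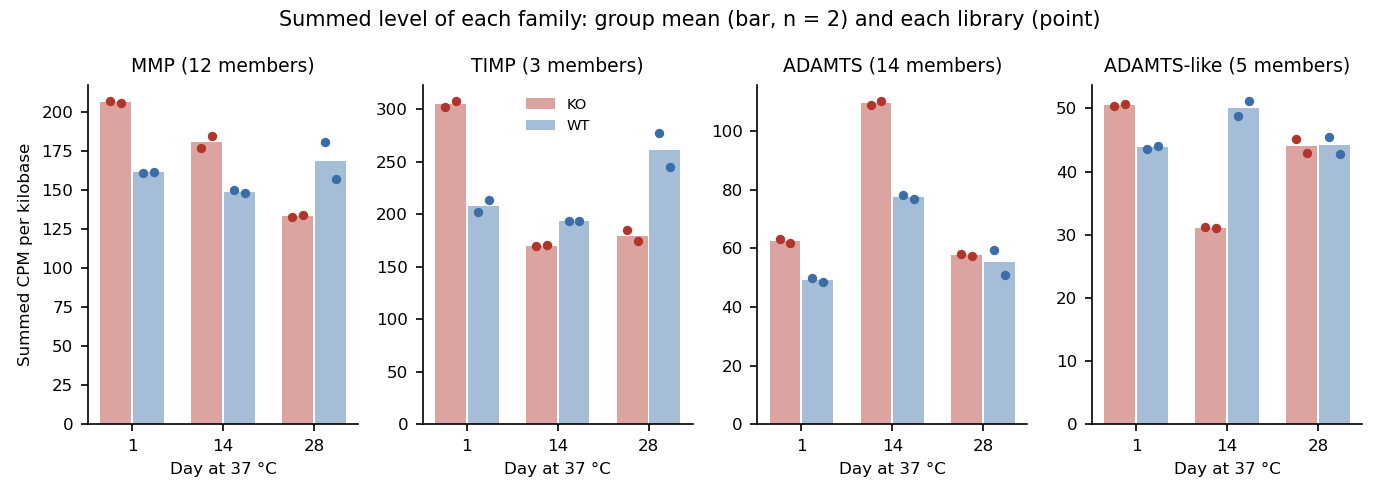
Summed CPM per kilobase of the described genes of each family by day, as group means (bars, n = 2) and single libraries (points), with KO left of WT. The Timp sum is higher in KO than in WT only at day 1, and the Adamts sum peaks at day 14 in both lines, at 109.7 in KO and 77.55 in WT.

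Of the proteoglycan-cutting ADAMTS genes, Adamts1, Adamts4 and Adamts9 were higher in KO at day 14 and Adamts5 was lower. Adamts4 (aggrecanase-1, chromosome 1 from 171250421 to 171260637, plus strand) had 966 and 1101 counts in KO against 739 and 667 in WT at day 1, 1300 and 1474 against 389 and 261 at day 14, and 538 and 825 against 587 and 477 at day 28. On the CPM scale KO was the higher group on each day, by 0.83 ± 0.08 (adjusted p = 8.99e-08), 1.98 ± 0.09 (2.88e-13) and 0.36 ± 0.09 (0.00289). The day 28 call was lost without KO day 28 replicate 2 (0.21, adjusted p = 0.109).

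Adamts1, which cuts versican and aggrecan, lies on chromosome 16 from 85793827 to 85803113 (minus strand), next to Adamts5. Its counts were 496 and 585 in KO against 409 and 427 in WT at day 1, 1410 and 1494 against 706 and 494 at day 14, and 271 and 369 against 604 and 431 at day 28. KO lay above WT at days 1 and 14, by 0.65 ± 0.09 (adjusted p = 6.51e-06) and 1.16 ± 0.08 (1.86e-10), and below it at day 28, by -0.68 ± 0.09 (5.61e-06). Its neighbour Adamts5 (aggrecanase-2, from 85856173 to 85901828 on the same strand) went another way, with -0.52 ± 0.14 (0.00416) at day 14, 0.10 ± 0.15 (0.632) at day 1 and -0.13 ± 0.12 (0.438) at day 28. Adamts9, a versicanase, was higher in KO at days 14 and 28 by 0.49 ± 0.07 (6.11e-06) and 0.77 ± 0.07 (4.41e-08). At day 1 it was 0.24 ± 0.07 (0.0139), a call lost without WT day 1 replicate 1 (0.18, adjusted p = 0.156) or KO day 1 replicate 2 (0.21, 0.124) and with library totals (0.0603). Adamts9 shares exon sequence with A730049H05Rik and Gm15737 on the opposite strand.

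Adamts20, the closest relative of Adamts9, lay between 1.1 and 1.523 CPM per kb and was called only at day 28 (-0.46 ± 0.15, adjusted p = 0.0179), a call lost without WT day 28 replicate 1 (-0.42, adjusted p = 0.0671) or KO day 28 replicate 1 (-0.34, 0.141) and with DESeq2 (0.0511). Among the procollagen N-proteinases, Adamts2 was higher in KO at days 1 and 28, by 0.62 ± 0.07 (8.26e-07) and 0.29 ± 0.07 (0.00192), and Adamts14 at day 14, by 0.78 ± 0.21 (0.00376). Adamts3, the third of them, had 1 to 12 counts per library and was not tested.

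Genes linked to fibrillin microfibrils split. Adamts10 was higher in KO at day 14 by 0.35 ± 0.09 (adjusted p = 0.00363). Its call at day 1, 0.27 ± 0.10 (0.0309), was lost without WT day 1 replicate 2 (0.16, adjusted p = 0.321), KO day 1 replicate 1 (0.23, 0.164) or KO day 1 replicate 2 (0.31, 0.063) and with library totals (0.0947). Its relative Adamts6 was lower in KO at day 28 by -0.99 ± 0.20 (0.000488), or -0.65 (0.0281) without KO day 28 replicate 2. The Adamts6 call at day 14, -0.72 ± 0.20 (0.00424), was lost without WT day 14 replicate 1 (-0.55, 0.0897) or KO day 14 replicate 1 (-0.58, 0.0607). Adamts17 (chromosome 7 from 66839735 to 67153171, plus strand) had 66 and 88 counts in KO against 46 and 69 in WT at day 1, 13 and 13 against 22 and 9 at day 14, and 13 and 8 against 20 and 9 at day 28. The lines overlapped at days 14 and 28 and the difference at day 1 was 0.69 ± 0.28 (0.0519), while the day 14 libraries lay below the day 1 libraries in each line, by -2.37 ± 0.36 (2.15e-05) in KO and -1.32 ± 0.36 (0.00715) in WT. The WT change was lost without WT day 1 replicate 2 (-0.99, 0.111) or WT day 14 replicate 2 (-1.01, 0.0882).

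Adamts12 and Adamts7, whose proteins carry a mucin domain and cut cartilage oligomeric matrix protein, also differed from each other. Adamts12 was lower in KO by -0.43 ± 0.16 (adjusted p = 0.0417), -0.50 ± 0.15 (0.0104) and -0.70 ± 0.17 (0.00278) at days 1, 14 and 28. None of these 3 calls held throughout. The groups overlapped at day 28, DESeq2 called none of the 3 (0.279, 0.162 and 0.0609), and the day 1 call was lost without any single library of day 1 or day 14 (adjusted p from 0.0568 to 0.161). The day 14 call was lost without WT day 14 replicate 1 (-0.50, 0.0528) or KO day 14 replicate 1 (-0.45, 0.0846). The day 28 value was -0.30 (0.113) without KO day 28 replicate 2, -1.19 without replicate 1 and -0.39 without WT day 28 replicate 1. Adamts7 (chromosome 9 from 90163069 to 90208071, plus strand) had 36 and 28 counts in KO against 16 and 12 in WT at day 1, 38 and 33 against 36 and 17 at day 14, and 26 and 42 against 25 and 14 at day 28. It was higher in KO at day 1 by 1.47 ± 0.38 (0.00359), a call lost without KO day 1 replicate 1 (1.17, 0.0621). Adamts7 shares exon sequence with Tbc1d2b on the opposite strand.

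Adamts18 (chromosome 8 from 113697126 to 113848738, minus strand), a protease whose substrates are little known, had 24 and 28 counts in KO against 181 and 186 in WT at day 1, 46 and 80 against 233 and 150 at day 14, and 1 and 2 against 57 and 18 at day 28. KO libraries were the lowest on every day, by -2.54 ± 0.28 (adjusted p = 3.26e-07), -1.72 ± 0.24 (3.79e-06) and -4.51 ± 0.65 (1.18e-05). With 3 counts in KO at day 28, the ratio of the sums was 24.8 times lower (exact 95% interval 8.18 to 123). Both lines had their highest level at day 14.

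Of the 5 ADAMTS-like genes, Adamtsl1 (punctin, chromosome 4 from 85514172 to 86428385, plus strand) changed most. It had 1 and 4 counts in KO against 132 and 159 in WT at day 1, 135 and 213 against 372 and 280 at day 14, and 20 and 15 against 193 and 99 at day 28. In the KO line the level thus appeared at day 14 and was low before and after, while WT libraries always held at least 99 counts. The differences were -5.52 ± 0.46 (adjusted p = 5.49e-09), -1.03 ± 0.19 (0.000105) and -3.02 ± 0.31 (1.06e-07). Within KO, day 14 exceeded day 1 by 6.23 ± 0.43 (4.08e-10), against 1.74 ± 0.19 (5.25e-07) in WT, a difference of 4.49 ± 0.57 (9.15e-06) between the lines.

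Adamtsl5, which binds microfibrils (chromosome 10 from 80339110 to 80348412, minus strand), had 321 and 389 counts in KO against 359 and 361 in WT at day 1, 302 and 304 against 447 and 324 at day 14, and 239 and 277 against 722 and 446 at day 28. The lines drew apart with time, with differences of 0.25 ± 0.12 (adjusted p = 0.105), -0.46 ± 0.12 (0.00359) and -1.15 ± 0.12 (1.72e-07). The day 14 call was lost without KO day 14 replicate 2 (-0.40, adjusted p = 0.05).

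Adamtsl3, the most abundant of them, was lower in KO at day 14 by -0.93 ± 0.06 (adjusted p = 1.43e-10) and higher at days 1 and 28 by 0.22 ± 0.06 (0.00651) and 0.31 ± 0.06 (0.000344). Adamtsl4, a microfibril-binding protein, was higher in KO at day 14 by 0.46 ± 0.13 (0.00435) and lower at day 28 by -0.63 ± 0.13 (0.000484). Its day 1 call, 0.31 ± 0.11 (0.027), was lost without any 1 of the 4 day 1 libraries (0.27 to 0.36, adjusted p from 0.0592 to 0.17), with library totals (0.0732) and with DESeq2 (0.0804). Adamtsl2, which binds fibrillin and latent TGF-beta binding protein, had 3 and 3 counts in KO against 21 and 15 in WT at day 1, 1 and 2 against 13 and 8 at day 14, and 1 and 0 against 3 and 0 at day 28. Adamtsl2 passed the count rule through WT libraries alone, so its calls are not independent of that choice. It was lower in KO at day 1 by -2.26 ± 0.62 (0.00599), a call lost without WT day 1 replicate 1 (-2.01, 0.0603) or KO day 1 replicate 2 (-2.15, 0.0665) and with DESeq2 (0.055). At day 14 the sum was 7.6 times lower (exact 95% interval 2.27 to 39.8; adjusted p = 0.0051), a call lost without KO day 14 replicate 1 (0.0513).

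Changes with time were tested within each line. From day 1 to day 14 in KO, 10 of the 33 genes were higher and 9 lower at the later day (background 19.4% and 18.0%), and in WT 15 were higher and 7 lower (background 18.2% and 15.9%). At day 28 against day 1, KO had 9 higher and 13 lower (28.2% and 27.4%), and WT 11 higher and 6 lower (24.6% and 23.4%), or 10 and 10 with library totals. At day 28 against day 14, KO had 6 higher and 16 lower (25.6% and 25.1%), and WT 7 higher and 8 lower (17.9% and 16.8%). Over all genes, library totals changed the split of day 14 against day 1 in WT to 2063 higher and 2958 lower, where TMM gave 2505 and 2191.

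For 21 of the 34 genes both lines had their highest mean on the same day. The highest day was not computed over all genes, so the counts here cannot be called particular to these families. Day 14 was the highest day for 9 of 14 Adamts genes in KO and 7 of 14 in WT, among them Adamts1, Adamts9, Adamts10, Adamts12, Adamts14 and Adamts18 in both. Of the 12 Mmp genes, day 1 was the highest for 6, day 14 for 2 and day 28 for 4 in KO, and each day for 4 in WT. Adamts12 was higher at day 14 than at day 1 by 1.16 ± 0.16 (adjusted p = 9.35e-06) in KO and 1.23 ± 0.16 (3.48e-06) in WT. Adamts9 showed 1.24 ± 0.07 (2.36e-11) in KO and 0.99 ± 0.07 (1.57e-09) in WT. Adamts5 was higher at day 28 than at day 1 by 1.26 ± 0.14 (1.63e-07) in KO and 1.49 ± 0.14 (1.44e-08) in WT, and Mmp13 by 2.43 ± 0.28 (2.31e-07) in KO and 2.22 ± 0.31 (4.94e-06) in WT.

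The change from day 1 differed between the lines for 13 of the 33 genes at day 14, 4 more positive and 9 more negative in KO, against a background of 18.8% of all genes in either direction. At day 28 it differed for 17, 5 more positive and 12 more negative in KO (background 20.0%). Timp3 was lower at day 14 than at day 1 in KO, by -0.81 ± 0.08 (adjusted p = 4.48e-08), while the WT value was 0.05 ± 0.07 (0.635), and the lines differed in this change by -0.85 ± 0.10 (4.65e-06). Both lines had more Timp3 at day 28 than at day 1, by 1.55 ± 0.07 (2.28e-13) in KO and 1.09 ± 0.07 (5.07e-11) in WT. Mmp2 at day 28 was lower than at day 1 in KO by -1.96 ± 0.08 (2.79e-14), against -0.15 ± 0.08 (0.111) in WT, a difference of -1.81 ± 0.11 (3.64e-10).

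**Figure D5:**
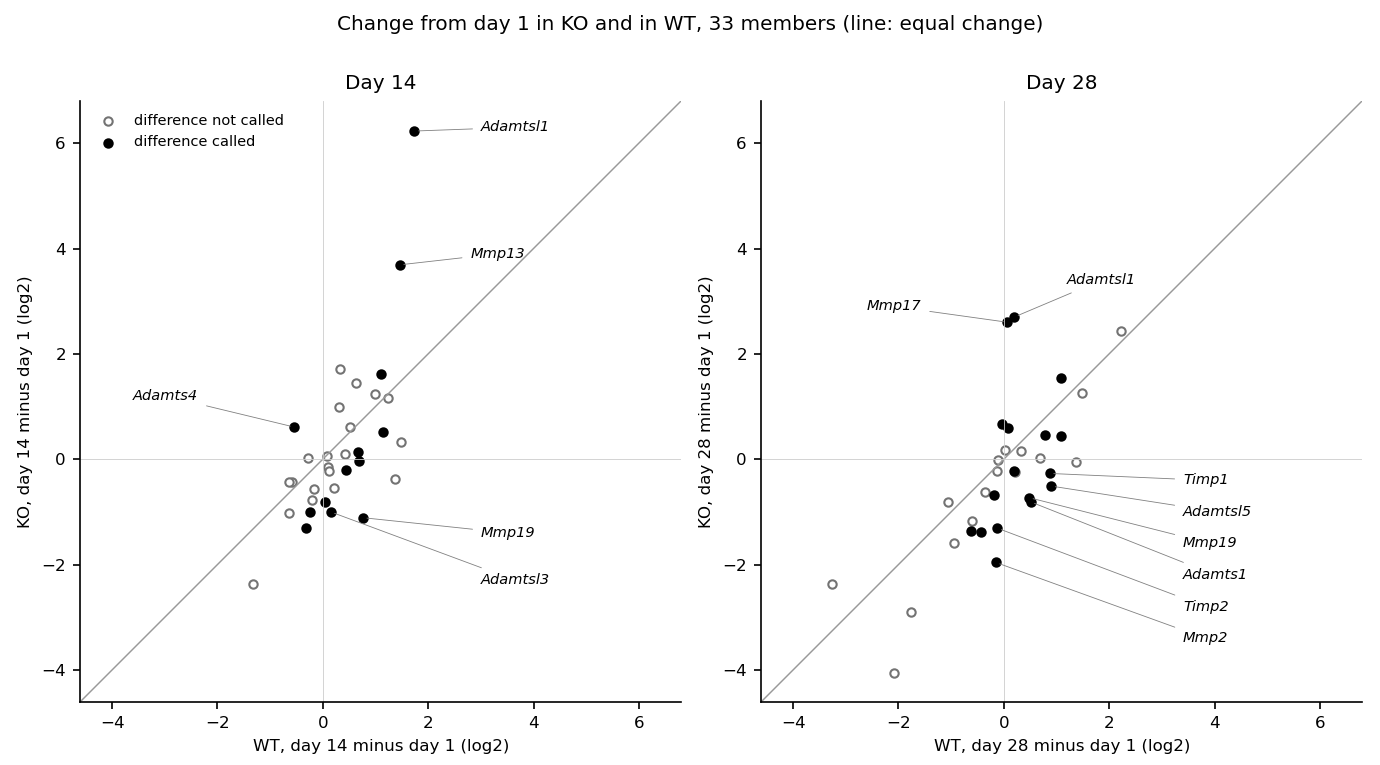
Change from day 1 to day 14 (left) and to day 28 (right) of the 33 genes on the log2 scale, in KO (vertical axis) and in WT (horizontal axis), with the line of equal change; filled points had a called difference between the lines, and those that differ by at least 1 are named. Adamtsl1 and Mmp13 lie above the line at day 14, and Mmp2, Timp2 and Adamts1 below it at day 28.

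Genes known to act beside these proteases were counted in 7 lists. Each list is to be read against the shares of all tested genes called at the same day. Among 7 tested genes of plasminogen activation, which feeds MMP activation, 3 were higher and 1 lower in KO at day 1, 3 higher and 2 lower at day 14, 1 higher and 4 lower at day 28, against the backgrounds given above for each day. Serpine2, an inhibitor of plasminogen activators, had 46.73 and 47.68 CPM in KO against 14.43 and 15.29 in WT at day 1, 167.3 and 167.7 against 51 and 47.79 at day 14, and 95.42 and 81.69 against 43.97 and 27.82 at day 28 (1.67 ± 0.14, 1.76 ± 0.12 and 1.29 ± 0.12). The adjusted p-values were 9.76e-09, 1.76e-10 and 5.66e-08. Plat, the tissue-type activator, was higher in KO at days 1 and 14 by 0.91 ± 0.13 (adjusted p = 1.29e-05) and 1.37 ± 0.15 (1.24e-07). The day 14 count of 5 was 3 without KO day 14 replicate 1 and with DESeq2, and that of day 28 was 3 without WT day 28 replicate 1 or KO day 28 replicate 2.

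Of 11 tested membrane ADAM genes 2 were higher and 1 lower in KO at day 1, 3 higher and 1 lower at day 14, 3 higher and 2 lower at day 28. Of all tested genes, 19.5% were higher and 20.8% lower at day 1, 23.8% and 25.9% at day 14, 19.8% and 21.2% at day 28. The ADAM genes called in either direction were 27.3%, 36.4% and 45.5% at these days. The same background holds for the 2 lists that follow. Adam23, a member without catalytic activity, had 61.08 and 56.65 CPM in KO against 4.616 and 5.184 in WT at day 1 (3.58 ± 0.13, adjusted p = 2.17e-14), and was also higher in KO at day 14 by 2.49 ± 0.15 (2.03e-11) and at day 28 by 2.16 ± 0.13 (2.88e-11). Adam12 was higher in KO at day 14 by 1.15 ± 0.14 (5.43e-07) and at day 28 by 0.83 ± 0.17 (0.000443). Bmp1, the procollagen C-proteinase, was higher in KO at day 14 by 0.86 ± 0.08 (1.63e-08), together with the enhancer gene Pcolce2 (1.55 ± 0.12, 1.25e-09). In this list of 3 tested genes, 1 was higher and 1 lower in KO at day 1, 2 higher and 0 lower at day 14, 1 higher and 1 lower at day 28, and the day 1 count of 2 was 1 without any single library of day 1 or day 14 and with DESeq2. Of 13 tested genes for activation, surface inhibition and clearance of metalloproteases, 3 were higher and 5 lower in KO at day 1, 3 higher and 5 lower at day 14, 1 higher and 8 lower at day 28. Furin, which activates Mmp11, the membrane-type enzymes and ADAMTS proteases, was higher in KO at days 1 and 14 by 0.71 ± 0.08 (3.99e-07) and 0.84 ± 0.09 (1.08e-07). The thrombospondin proteins encoded by Thbs1 and Thbs2 bind Mmp2 and aid its clearance. Thbs1 was lower in KO on all 3 days, by -0.80 ± 0.09 (2.91e-07), -1.53 ± 0.09 (2.07e-11) and -1.01 ± 0.09 (3.65e-08) at days 1, 14 and 28, and Thbs2 was lower at day 28 by -1.14 ± 0.08 (4.91e-10).

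Of 9 tested other secreted proteases and cathepsins, 3 were higher and 2 lower in KO at day 1, 1 higher and 3 lower at day 14, 0 higher and 6 lower at day 28; Ctsl was lower on each day, with -1.29 ± 0.08 (adjusted p = 2.51e-11) at day 14. The day 14 count of 4 was 2 without KO day 14 replicate 1. Among 12 tested substrate genes, 3 were higher and 6 lower in KO at day 1, 4 higher and 6 lower at day 14, 1 higher and 5 lower at day 28. The background of both lists was 19.5% higher and 20.8% lower at day 1, 23.8% and 25.9% at day 14, 19.8% and 21.2% at day 28. Vcan, encoding the versican that Adamts1, Adamts4 and Adamts9 cut, was higher in KO by 1.81 ± 0.09 (2.37e-12) at day 1 and 1.88 ± 0.08 (2.06e-13) at day 14. Col1a1 was higher at day 14 with 17934 and 17684 CPM in KO against 6895 and 7505 in WT (1.31 ± 0.16, 6.55e-07). Elastin gene Eln was lower at days 1 and 28 by -4.57 ± 0.48 (1.46e-07) and -1.49 ± 0.24 (3.83e-05).

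Of 11 tested genes for AP-1, Ets and Runx factors, 1 was higher and 6 lower in KO at day 1, 1 higher and 8 lower at day 14, 0 higher and 6 lower at day 28. The background was 19.5% higher and 20.8% lower at day 1, 23.8% and 25.9% at day 14, 19.8% and 21.2% at day 28. The AP-1 gene Fosl1 was lower in KO at days 1 and 28 by -1.64 ± 0.29 (adjusted p = 0.000102) and -1.80 ± 0.25 (8.36e-06), Jun at day 28 by -1.21 ± 0.10 (1e-08), and Ets2 at days 1 and 14 by -0.91 ± 0.08 (6.27e-09) and -1.16 ± 0.09 (5.42e-10). At day 14 Fosl1 was lower by -1.05 ± 0.35 (0.0177), a call lost without WT day 14 replicate 1 (-0.74, 0.216) or KO day 14 replicate 1 (-0.73, 0.166). On the same day, Fosb was lower in KO by -2.29 ± 0.42 (0.000114), with 1.793 and 1.972 CPM in KO against 13.83 and 3.934 in WT. The day 1 count of 7 was 3 without WT day 1 replicate 2 and 4 without KO day 1 replicate 2.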

How the data were processed

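RNA-seq of OCY454 cells was deposited by the authors as 1 table of raw read counts per gene with a column for each of the 12 libraries (6 groups of 2), and no per-sample column was left unused. STAR, mm10, featureCounts of Subread and edgeR are named, with no role or order, per the submitters' processing notes; the strand setting is not given in the sources used here. Gene positions and exon lengths came from GENCODE vM21 (GRCm38), which held 97.6% of the symbols, and promoters from RefSeq.

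Counts were tested with edgeR 4.0.16 (R 4.3.3), its quasi-likelihood test, on all 6 groups in 1 fit without a replicate term. filterByExpr kept 13772 genes (minimum count 10, minimum total 15), scaling was TMM, and p-values were adjusted over all tested genes by Benjamini-Hochberg, with a threshold of 0.05. Named p-values without a tool are from this test. Values after ± are standard errors for log2 fold changes and SDs for levels. The 3 transgene rows were left out. CPM per kb divides CPM by summed exon length. Tested on simulated data for KO minus WT at day 1, the fit recovered 84 of 99 genes changed 2-fold and 91 of 98 changed 4-fold, with 9 false calls among 13222 genes. The simulation changed 200 genes, up and down alike, with the spread that the fit itself had estimated. It therefore tests neither the scaling where many genes differ, as here, nor that spread.

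Genes given in full were tested genes whose average log2 CPM reached 1 and that were called with an absolute log2 fold change of at least 1 between the lines or at least 2 between days of 1 line; others described as closely, such as Timp2 and Adamtsl2, were chosen after their values were seen. In each further list at most the 3 called genes with the largest change per day were named. Some items that this rule would name are not reported here. The genes and lists were chosen with earlier results of these data known. Alternatives were DESeq2 1.42.0, its size factors, library totals, no filter on low counts, a replicate block and each library left out. A planned search of protein sequences was not run. Intervals at 95% cover counting error only.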

Additional observations from a re-analysis of the deposited data

Results flagged for a closer look

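The change from day 1 differed between KO and WT, by a test of the difference itself, for the genes below. Each value is the KO change minus the WT change on the log2 scale (edgeR's quasi-likelihood test, adjusted p below 0.05). No explanation was tested.

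Among the Mmp genes at day 14, the difference was -0.66 for Mmp9, -0.99 for Mmp11, 2.23 for Mmp13 and -1.87 for Mmp19. At day 28 it was -1.81 for Mmp2, 0.70 for Mmp11, -0.43 for Mmp14, 2.53 for Mmp17, -1.21 for Mmp19, -0.75 for Mmp23 and -0.64 for Mmp28. Among the inhibitors it was -0.75 for Timp2 and -0.85 for Timp3 at day 14, and -1.14 for Timp1, -1.18 for Timp2 and 0.46 for Timp3 at day 28.

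Among the Adamts genes at day 14 it was 0.51 for Adamts1, -0.53 for Adamts2, 1.15 for Adamts4 and -0.62 for Adamts5. At day 28 it was -1.33 for Adamts1, -0.32 for Adamts2, -0.48 for Adamts4 and 0.53 for Adamts9. Among the ADAMTS-like genes it was 4.49 for Adamtsl1, -1.15 for Adamtsl3 and -0.72 for Adamtsl5 at day 14, and 2.49 for Adamtsl1, -0.94 for Adamtsl4 and -1.41 for Adamtsl5 at day 28.

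Several of these were lost when 1 library was left out. Mmp9 at day 14 was lost without WT day 1 replicate 2 (-0.62), KO day 1 replicate 1 (-0.43), WT day 14 replicate 2 (-0.59) or KO day 14 replicate 1 (-0.54), and Mmp13 at day 14 without WT day 1 replicate 2 (1.66). Mmp17 at day 28 was lost without WT day 1 replicate 2 (1.75), KO day 1 replicate 2 (2.02), WT day 28 replicate 1 (2.31) or KO day 28 replicate 1 (2.46), and with DESeq2 (2.56). Mmp19 at day 28 was lost without WT day 1 replicate 1 (-0.98), KO day 1 replicate 2 (-1.03), WT day 28 replicate 1 (-0.69) or KO day 28 replicate 2 (-1.09). Mmp23 was lost without WT day 1 replicate 1 (-0.70), KO day 1 replicate 1 (-0.65), WT day 28 replicate 1 (-0.61) or KO day 28 replicate 2 (-0.49).

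Mmp28 at day 28 was lost without WT day 1 replicate 1 (-0.53), KO day 1 replicate 1 (-0.59) or KO day 28 replicate 2 (-0.47), and Adamts4 at day 28 without WT day 1 replicate 2 (-0.41). Adamts2 at day 28 was lost without any day 1 library, WT day 28 replicate 1 or KO day 28 replicate 2 (-0.21 to -0.35) and with DESeq2 (-0.33). Adamts5 at day 14 was lost without WT day 1 replicate 2, KO day 1 replicate 1 or any day 14 library (-0.35 to -0.67) and with DESeq2 (-0.63). Adamtsl1 at day 28 was lost without WT day 1 replicate 2 (2.35), KO day 1 replicate 1 (1.94), KO day 1 replicate 2 (3.62) or KO day 28 replicate 1 (2.10).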

How the results depend on the processing

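Of 363 results for the 33 tested genes, 211 were called, and 153 of these held under all 17 alternatives; no called value changed sign. With single libraries left out, the number of the 33 genes called was 14 to 25 at day 1, 18 to 23 at day 14 and 18 to 22 at day 28 for KO minus WT. In KO it was 17 to 21, 20 to 24 and 19 to 22, and in WT 16 to 23, 15 to 19 and 11 to 18, for day 14 against 1, 28 against 1 and 28 against 14. For the differences between the lines it was 10 to 16 at day 14 and 13 to 21 at day 28. Over all genes the differences numbered 2595 at day 14 (1668 to 3508) and 2759 at day 28 (1691 to 3899), lowest without KO day 1 replicate 2. DESeq2 called 16, 21 and 18 of the 33 genes at days 1, 14 and 28. With a replicate block 21, 23 and 21 were called, and 5519, 6785 and 5643 over all genes, against 5544, 6842 and 5646 without it. To look for pairing, the mean of its group was subtracted from each library's log CPM. These residuals of same-numbered libraries correlated at -0.0402 to 0.112 over 15 pairs of groups. The numbers were therefore not taken to pair libraries. With 2 libraries per group, genes under about 20 counts, such as Mmp8, Mmp12, Mmp17 and Adamtsl2, gave wide errors.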
